A study of Mus musculus with 12 samples.

Results

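The genes described here are 10 that microglia could use to take up fatty acids and to store them in lipid droplets. They were chosen by symbol and are *Cd36*, *Lpl*, *Fabp3*, *Fabp4*, *Fabp5*, *Plin2*, *Hilpda*, *Dgat1*, *Dgat2* and *Pparg*. All 10 were found among the 55401 gene identifiers of the count data. The data are RNA-seq counts of CD45int CD11b+ microglia sorted from brains of male mice, in 12 libraries of 4 groups with 3 replicates each. WT mice carried CX3CR1 wt/wt with HDAC3 loxp/loxp, and miKO mice carried CX3CR1 CreER/wt with HDAC3 loxp/loxp, so that the floxed *Hdac3* alleles were common to all groups. Mice were given tamoxifen (100 mg/kg for 5 days at 6 to 8 weeks of age), and surgery followed at least a month later. In the tFCI groups, the middle cerebral artery was closed for 60 min to model ischemic stroke, and sham mice had the same anesthesia and exposure of the arteries alone. Cells were taken on day 3, with 3 to 4 hemispheres pooled per library. Only miKO mice had a *Cx3cr1* allele replaced by CreER, which is active in other CX3CR1-expressing cells as well as microglia, so CreER and the loss of *Hdac3* cannot be told apart. The paper left the month before surgery so that circulating monocytes would be renewed. It reports unchanged *Hdac3* RNA in infiltrated macrophages sorted after tFCI.

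Fatty acids reach a cell from lipoproteins, whose triglycerides are split by lipoprotein lipase (*Lpl*), and from taken-up membranes such as myelin. The receptor CD36 moves them across the membrane, and fatty acid-binding proteins carry them through the cytosol. Diacylglycerol acyltransferases (*Dgat1*, *Dgat2*) build them into triglycerides, which are stored in droplets coated by perilipin 2 (*Plin2*), and HILPDA slows the lipase that empties these droplets. PPAR gamma (*Pparg*) is a nuclear receptor for fatty acids that switches on many of these genes in fat cells and macrophages. Microglia that have taken up much lipid are known to build up such droplets.

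Each library had between 7697864 and 9452222 counts on genes, with a median of 8226429.5. *Hdac3*, the targeted gene, was lower in both comparisons of miKO with WT, with a log2 fold change of -0.81 ± 0.16 (SE) in miKO-Sham vs. WT-Sham (edgeR adjusted p = 0.00281) and of -0.71 ± 0.16 in miKO-tFCI vs. WT-tFCI (edgeR adjusted p = 0.0127). In both, every miKO library lay below every WT library. The 10 microglia markers were detected in all libraries. They summed to 29282 to 38678 CPM (counts scaled to library size) in WT-Sham and 27254 to 32296 CPM in the miKO-Sham libraries. The sums were 20942 to 23284 CPM in WT-tFCI, and 10484 to 20267 CPM in the miKO-tFCI libraries, so every tFCI library lay below every sham library and every miKO-tFCI library below every WT-tFCI library. Of the 10, 7 were called lower in WT-tFCI vs. WT-Sham, 10 in miKO-tFCI vs. miKO-Sham, 5 in miKO-tFCI vs. WT-tFCI and 4 in miKO-Sham vs. WT-Sham, where 1 was higher. Over all genes tested, 11.7%, 13.9%, 4.71% and 6.8% were called lower in this order, and 8.58% were called higher in the last comparison. The markers lower in both comparisons of miKO with WT include *Cx3cr1*, of which only miKO mice had an allele replaced by CreER. Its counts are also part of the sums. The 7 adipocyte markers summed to at most 1.55 CPM in any library, and *Adipoq*, the fat cell hormone adiponectin, was at 0 in all 12 libraries.

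Transcripts of other cells moved with the groups as well, and for each list the gene with the highest mean over the 12 libraries is named. Endothelial markers (*Ly6c1*) summed to 16.7 to 35.1 CPM in sham libraries and 70.8 to 343 CPM in tFCI libraries, and 8 of 10 were called higher in WT-tFCI vs. WT-Sham and 10 of 10 in miKO-tFCI vs. miKO-Sham. Over all genes tested, 20.9% and 21.9% were called higher in these comparisons. Pericyte and smooth muscle markers (*Pdgfrb*) summed to 2.98 to 8.60 CPM in sham and 15.0 to 93.6 CPM in tFCI libraries. Every tFCI library thus lay above every sham library in both lists. Monocyte and macrophage markers summed to at most 120 CPM in sham libraries, 393 to 712 CPM in WT-tFCI libraries and 565 to 1222 CPM in the miKO-tFCI libraries. Their highest gene, *Fn1*, had a mean of 369 CPM in WT-tFCI libraries and 206 CPM in the miKO-tFCI libraries, a difference that was not called (edgeR adjusted p = 0.183). Of the 10 markers, 3 were called higher in miKO-tFCI vs. WT-tFCI. Border-associated macrophage markers (*F13a1*) summed to 171 to 288 CPM in WT-tFCI libraries and 311 to 829 CPM in the miKO-tFCI libraries (104 to 130 CPM with WT-Sham), without overlap. In miKO-tFCI vs. WT-tFCI, 3 of 8 were called higher, beside the same 4.08% of all genes. Neutrophil markers (*S100a8*) summed to 161 to 218 CPM in WT-tFCI libraries and 728 to 1003 CPM in the miKO-tFCI libraries. There 7 of 10 were called higher, again beside 4.08% of all genes. Astrocyte markers summed to 112 to 197 CPM in sham, 169 to 288 CPM in WT-tFCI and 216 to 589 CPM in miKO-tFCI libraries. Their highest gene, *Slc1a3*, did not follow the sum: its mean was 180 CPM with WT-Sham and 111 CPM with WT-tFCI, and 109 CPM with miKO-Sham and 67.1 CPM with miKO-tFCI, and it was called lower in all 4 comparisons. Oligodendrocyte markers (*Cnp*) summed to 151 to 334 CPM, and neuron and lymphocyte markers (*Rbfox3* and *Nkg7*) to at most 15.8 and 18.9 CPM. The part of these cells in the results was not tested, and in bulk RNA fewer cells of a type and less RNA per cell cannot be told apart.

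Within groups, some libraries stood apart. The labels put replicate 1 of each group in batch 1 and the others in batch 2, and WT-tFCI 1 and miKO-tFCI 1 had the highest endothelial sums (212 and 343 CPM, against 70.8 to 137 CPM in the other tFCI libraries), pericyte sums (51.7 and 93.6 CPM) and astrocyte sums (288 and 589 CPM). In miKO-Sham 3, border-associated macrophage markers summed to 328 CPM, against 86.7 and 94.8 CPM in the other miKO-Sham libraries. WT-Sham 1 had neutrophil markers at 863 CPM, against 51.4 and 78.9 CPM in the other WT-Sham libraries, and WT-Sham 2 held all 48 counts of the gut gene *Fabp2* in the 12 libraries. The deposited names of miKO-Sham 1 and 2 read like 1 sample on separate lanes, although the labels give them as separate replicates in different batches. They were the closest replicate pair (chi-square per degree of freedom 2.82, against 37.8 and 40.8 with miKO-Sham 3), but differed beyond sampling noise and were kept as 2 libraries. If they are 1 sample, miKO-Sham has n = 2 and its errors and p-values are too small. Without miKO-Sham replicate 1 or replicate 2, *Plin2* in miKO-Sham vs. WT-Sham was 3.54 and 3.60 on the log2 scale (edgeR adjusted p = 9.97e-06 and 9.67e-06), and *Lpl* was 0.85 and 1.20 (edgeR adjusted p = 0.0268 and 0.00452). *Fabp5* was 2.57 and 1.15, with an edgeR adjusted p of 0.00108 and 0.0572.

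**Figure D1:**
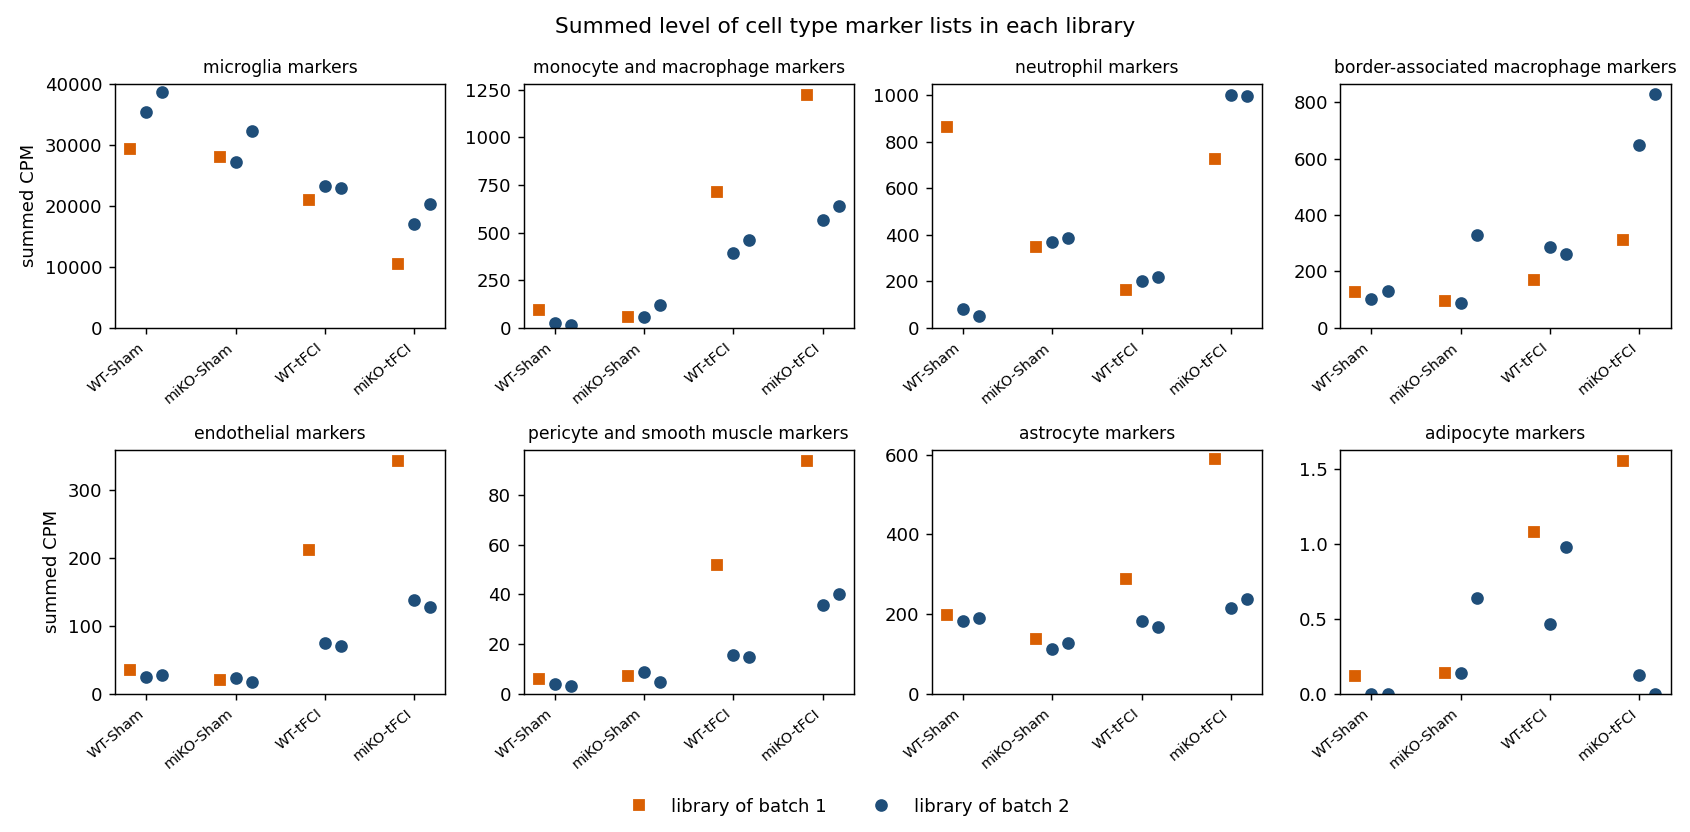
Summed level in CPM (y axis, linear, a scale of its own in each panel) of 8 lists of cell type markers in each library of the 4 groups (x axis), with batch 1 as orange squares and batch 2 as blue circles. Endothelial, pericyte and astrocyte markers are highest in the tFCI libraries of batch 1, and adipocyte markers stay at or below 1.55 CPM.

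The question was how these genes differ with stroke, with the loss of HDAC3, and with both. A call needed an adjusted p below 0.05 together with a log2 fold change beyond 0.58 in either direction (for the interaction, the adjusted p alone), and 8 of the 10 genes had enough counts to be tested. *Fabp4* and *Pparg* did not. *Fabp3* had 4 to 8 counts in WT-Sham libraries and 4 to 14 in miKO-Sham libraries. It had enough counts only through the tFCI libraries, where it was high, so its place among the 8 depended on tFCI. In WT-tFCI vs. WT-Sham, 6 of the 8 were called higher (*Cd36*, *Lpl*, *Fabp3*, *Fabp5*, *Plin2* and *Hilpda*) and 0 lower, where 20.9% of all 16451 tested genes were called higher and 11.7% lower. In miKO-tFCI vs. miKO-Sham, 7 were called higher, all but *Dgat1*, and 0 lower, with 21.9% and 13.9% of all genes called higher and lower. In miKO-Sham vs. WT-Sham, 3 were called higher (*Plin2*, *Fabp5* and *Lpl*) and 0 lower, with 8.58% and 6.8% of all genes. In miKO-tFCI vs. WT-tFCI, 4 were called higher (*Plin2*, *Fabp5*, *Dgat2* and *Hilpda*) and 0 lower, with 4.08% and 4.71% of all genes, and this count was 1 without the batch term, 2 without WT-tFCI replicate 2, 2 without WT-tFCI replicate 3 and 6 with only the groups compared, which added *Cd36* and *Lpl*. The interaction of genotype and surgery was called for 1, *Plin2*, where 2.57% of all genes had a negative and 1.25% a positive call. Of the 8 genes, 0 were lower at an unadjusted p under 0.05 in any of the 4 comparisons of groups. The comparisons share groups, so they are not independent of each other. The median log2 fold change of the 8 was 2.86, 2.00, 0.69 and 0.70 in the order in which the 4 comparisons are given, beside 0.02, 0.03, 0.04 and 0.04 over all genes tested.

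**Figure D2:**
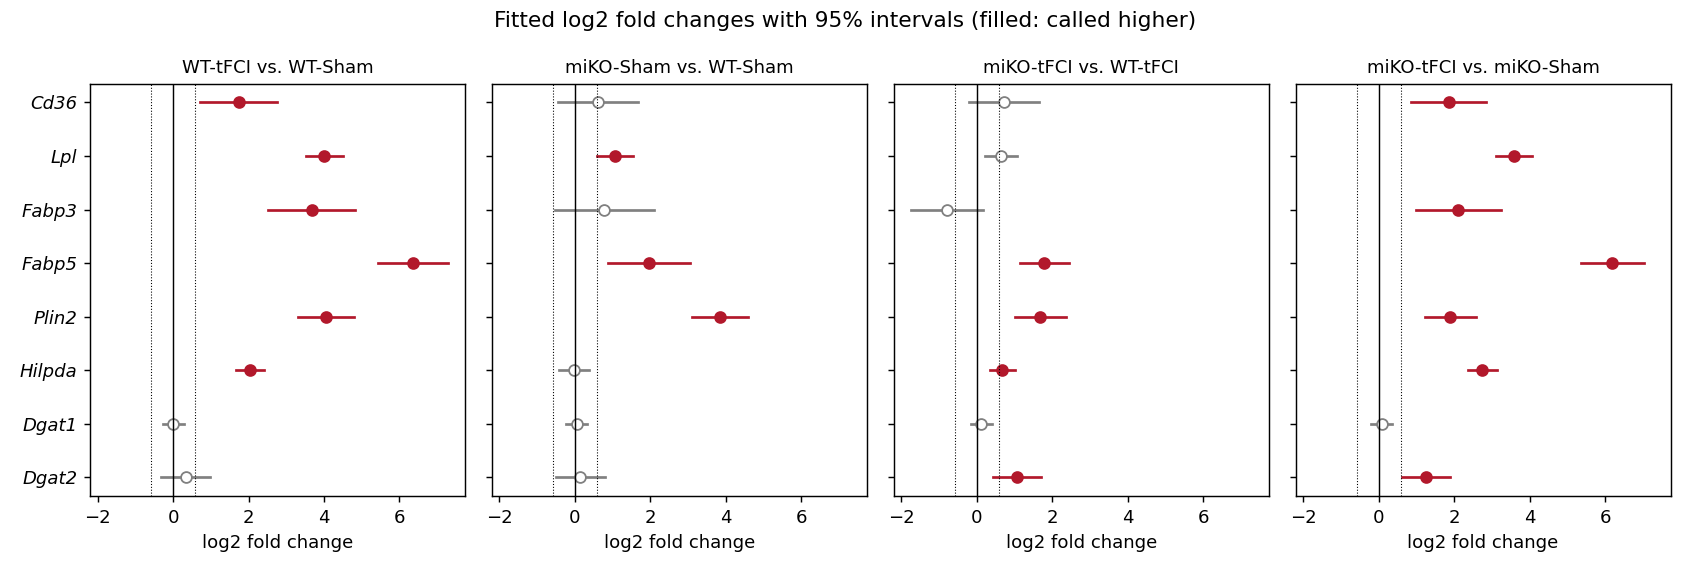
Fitted log2 fold change (x axis) of the 8 tested genes (y axis) in each of the 4 comparisons, with 95% intervals as bars. Filled red points were called higher, open grey points were not called, and dotted lines mark 0.58 on either side of 0, with 6, 3, 4 and 7 red points from left to right.

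To show the genes' upstream sequence, windows of 250 bases before the start site were read from RefSeq (GRCm38.p6), which had windows for 5 of the 10 genes. The windows of *Plin2* and *Cd36*, chosen because these genes were called higher with tFCI in WT and hold the letters searched, are given from 5′ to 3′ on the gene's strand. The *Plin2* window is chr4:86670060-86670309 (minus strand), its last base being the first of the annotated exon. The *Cd36* window is chr5:17835897-17836146 (minus strand) and lies inside the annotated gene, before an internal start site. Capitals mark AGGTCA, the core of sites for nuclear receptors such as PPARs, here on the other strand as TGACCT, and GCGTG, the core of sites for hypoxia-inducible factors, here on the other strand as CACGC. A stretch of 29 bases before a start site of *Hilpda*, a known target of hypoxia-inducible factors, is given with ACGTG in capitals. It is chr6:29272571-29272599 (plus strand) and lies in the first exon of another *Hilpda* transcript.
Plin2: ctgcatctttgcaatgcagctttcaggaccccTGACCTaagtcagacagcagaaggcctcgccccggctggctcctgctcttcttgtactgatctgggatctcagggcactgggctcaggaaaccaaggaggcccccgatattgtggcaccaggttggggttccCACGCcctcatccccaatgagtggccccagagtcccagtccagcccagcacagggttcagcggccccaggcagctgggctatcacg
Cd36: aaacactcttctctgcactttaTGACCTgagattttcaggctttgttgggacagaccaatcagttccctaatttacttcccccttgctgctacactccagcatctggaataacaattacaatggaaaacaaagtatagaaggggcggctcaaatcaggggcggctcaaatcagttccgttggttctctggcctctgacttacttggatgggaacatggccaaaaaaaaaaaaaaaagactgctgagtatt
Hilpda: gatggccagcggACGTGccccagggcgag
Searched on both strands, AGGTCA was in 14.02% of 32851 RefSeq windows of the same length, GCGTG in 28.16% and ACGTG in 16.57%. The direct repeat of AGGTCA with a spacer of 1 base, the DR1 element bound by PPAR with RXR, was searched in its exact form and was in 11 of them and in 0 of the windows of these genes. The window of *Fabp3*, which was also called higher with tFCI in WT, and the window of the other *Hilpda* start site held none of these letters, whereas 2 of the 3 windows of *Pparg*, which had too few counts to test, held AGGTCA and 1 of them also GCGTG. These are matches of letters, not sites shown to be used.

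*Cd36* (chr5:17781690-17888801 in GRCm38, minus strand) was 5.77, 4.15 and 3.80 CPM in WT-Sham, 3.89, 2.64 and 14.3 CPM in miKO-Sham, 18.4, 15.9 and 11.2 CPM in WT-tFCI, while miKO-tFCI had 20.6, 19.5 and 35.8 CPM, in the order of replicates 1, 2 and 3. All tFCI libraries lay above the WT-Sham libraries, and miKO-Sham 3, the library with many border-associated macrophage transcripts, lay above the lowest WT-tFCI library. The log2 fold change was 1.74 ± 0.48 (SE) in WT-tFCI vs. WT-Sham (edgeR adjusted p = 0.00999) and 1.85 ± 0.46 in miKO-tFCI vs. miKO-Sham (edgeR adjusted p = 0.00505). Without WT-tFCI replicate 1 the first of these calls was lost (edgeR adjusted p = 0.0595). Between genotypes it was not called, with 0.61 ± 0.50 in sham (edgeR adjusted p = 0.447) and 0.72 ± 0.44 in tFCI (edgeR adjusted p = 0.314), where a fit of only the tFCI groups called it (edgeR adjusted p = 0.0483). The sham value was -0.51 without miKO-Sham replicate 3, so that library decides its sign, and the value in miKO-tFCI vs. miKO-Sham was 2.96 without it and WT-Sham replicate 2.

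*Lpl* (chr8:68880491-68907448, plus strand), the lipase that releases fatty acids from lipoproteins, was 7.81, 13.8 and 12.1 CPM in WT-Sham, 22.6, 21.5 and 24.3 CPM in miKO-Sham, 167, 185 and 177 CPM in WT-tFCI, while miKO-tFCI had 154, 356 and 360 CPM. The sham groups did not overlap each other or the tFCI groups, whereas miKO-tFCI 1 lay below all WT-tFCI libraries and the other miKO-tFCI libraries above them. *Lpl* was higher with tFCI in WT by 4.01 ± 0.23 (log2, SE; edgeR adjusted p = 1.41e-08) and in miKO-Sham than in WT-Sham by 1.06 ± 0.23 (edgeR adjusted p = 0.00433). In miKO-tFCI vs. miKO-Sham the log2 fold change was 3.59 ± 0.23 (edgeR adjusted p = 4.86e-08). In miKO-tFCI vs. WT-tFCI it was 0.64 ± 0.20 and not called (edgeR adjusted p = 0.0553), with -0.12 in batch 1 and 0.98 in batch 2. It was called in 11 of 21 alternatives, among them DESeq2 (adjusted p = 0.0143) and without miKO-tFCI replicate 1 (0.92, edgeR adjusted p = 0.00195), and also without WT-tFCI replicate 1, WT-Sham replicate 1 or miKO-Sham replicate 1 or 2.

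*Fabp5* (chr3:10012548-10016607, plus strand), a fatty acid-binding protein found in skin, macrophages and brain, was 3.13, 0.672 and 0.513 CPM in WT-Sham, 3.89, 8.05 and 2.82 CPM in miKO-Sham, 206, 78.7 and 69.3 CPM in WT-tFCI, while miKO-tFCI had 576, 297 and 284 CPM. In both tFCI groups the batch 1 library was the highest, and these are the libraries with the most endothelial and astrocyte transcripts. The tFCI groups did not overlap each other or the sham groups. *Fabp5* had the largest log2 fold change of the 8 genes in both comparisons of tFCI with sham, 6.36 ± 0.43 in WT (edgeR adjusted p = 6.22e-08) and 6.19 ± 0.39 in miKO (edgeR adjusted p = 5.09e-08). Within batches it was 5.94 and 6.48 in WT, and 7.13 and 5.85 in miKO. Between tFCI groups it was 1.79 ± 0.30 (edgeR adjusted p = 0.00186), with 1.48 in batch 1 and 1.97 in batch 2, and it was not called without the batch term (edgeR adjusted p = 0.0726).

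Between sham groups *Fabp5* was higher in miKO-Sham by 1.96 ± 0.51 (edgeR adjusted p = 0.0147), although the libraries overlapped, as miKO-Sham 3 lay below WT-Sham 1. The value was 0.29 in batch 1 and 2.60 in batch 2, and 3.15 where batch 2 alone was fitted. This call rested on 5 to 58 counts per library and was lost without WT-Sham replicate 3 (1.67, edgeR adjusted p = 0.0559), without miKO-Sham replicate 2 (1.15, edgeR adjusted p = 0.0572), with only the groups compared (edgeR adjusted p = 0.0528) and without the batch term (edgeR adjusted p = 0.139).

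*Fabp3* (chr4:130308595-130315463, plus strand), the fatty acid-binding protein of heart and muscle, was 0.721, 0.448 and 0.821 CPM in WT-Sham, 0.972, 1.94 and 0.512 CPM in miKO-Sham, 9.81, 7.96 and 8.16 CPM in WT-tFCI, while miKO-tFCI had 10.5, 3.02 and 2.97 CPM. All tFCI libraries lay above all sham libraries, and within miKO-tFCI the batch 1 library stood far above the others. It was higher with tFCI in WT by 3.68 ± 0.54 (edgeR adjusted p = 0.000104) and in miKO-tFCI than in miKO-Sham by 2.11 ± 0.53 (edgeR adjusted p = 0.00507). The second call was lost without miKO-tFCI replicate 1 (1.37, edgeR adjusted p = 0.0544) and in batch 2 alone (1.27, edgeR adjusted p = 0.112). In miKO-tFCI vs. WT-tFCI the log2 fold change was -0.79 ± 0.45 (edgeR adjusted p = 0.284), the only negative value among the 8 in that comparison, with 0.10 in batch 1 and -1.36 in batch 2. *Fabp3* shares 81 exonic bases with *Zcchc17* on the opposite strand, and the strand setting of the counting is not given in the sources used here.

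*Fabp4* (chr3:10204088-10208576, minus strand), the fatty acid-binding protein of fat cells and macrophages, lies 187480 bases from *Fabp5* on the same chromosome. It had 0, 1 and 0 counts in WT-Sham, 0, 0 and 6 in miKO-Sham, 16, 0 and 0 in WT-tFCI, and 45, 2 and 7 in miKO-tFCI. The highest counts were in the batch 1 libraries of tFCI. Where it passed the filter on low counts after leaving out libraries, it was called only in miKO-tFCI vs. miKO-Sham, without miKO-Sham replicate 3 (edgeR adjusted p = 0.012) or with WT-Sham replicate 2 also left out (edgeR adjusted p = 0.00872), when the remaining miKO-Sham libraries were at 0. The coding sequences of *Fabp4* and *Fabp5* were 61.6% identical, those of *Fabp3* and *Fabp4* 65.7% and those of *Fabp3* and *Fabp5* 57.6%. The pseudogene *Fabp3-ps1* was 99.2% identical to *Fabp3* over 399 bases and *Fabp5l2* 94.1% identical to *Fabp5* over 405 bases, so reads that align to both copies would be left uncounted, and the levels of *Fabp3* and *Fabp5* are uncertain to that extent.

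*Plin2* (chr4:86648386-86670060, minus strand), the coat protein of lipid droplets, was 56.4, 48.0 and 57.5 CPM in WT-Sham, 961, 1002 and 355 CPM in miKO-Sham, 792, 991 and 911 CPM in WT-tFCI, while miKO-tFCI had 1956, 3279 and 3478 CPM. WT-Sham was lowest and miKO-tFCI highest without overlap, while miKO-Sham and WT-tFCI overlapped, and miKO-Sham 3 was far below its replicates. The group means were 53.9 ± 5.20, 772 ± 362, 898 ± 100 and 2905 ± 827 CPM (SD, n = 3). *Plin2* was higher by 4.05 ± 0.35 in WT-tFCI vs. WT-Sham (edgeR adjusted p = 5.84e-07), by 3.85 ± 0.34 in miKO-Sham vs. WT-Sham (edgeR adjusted p = 2.33e-06), by 1.69 ± 0.31 in miKO-tFCI vs. WT-tFCI (edgeR adjusted p = 0.00363) and by 1.89 ± 0.32 in miKO-tFCI vs. miKO-Sham (edgeR adjusted p = 0.000277). All 4 calls held in all 21 alternatives.

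The interaction of *Plin2* was -2.16 ± 0.44 (edgeR adjusted p = 0.0124), as the genotype difference was 14.4-fold in sham and 3.22-fold in tFCI. It was -2.78 in batch 1 and -1.67 in batch 2 and was called in all 20 alternatives that gave it, with a range of -2.56 to -1.87. Of the other 7 tested genes, 0 had a called interaction in edgeR or in DESeq2, and 2, *Dgat2* and *Hilpda*, had an unadjusted p under 0.05 in edgeR, both with a positive value.

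**Figure D3:**
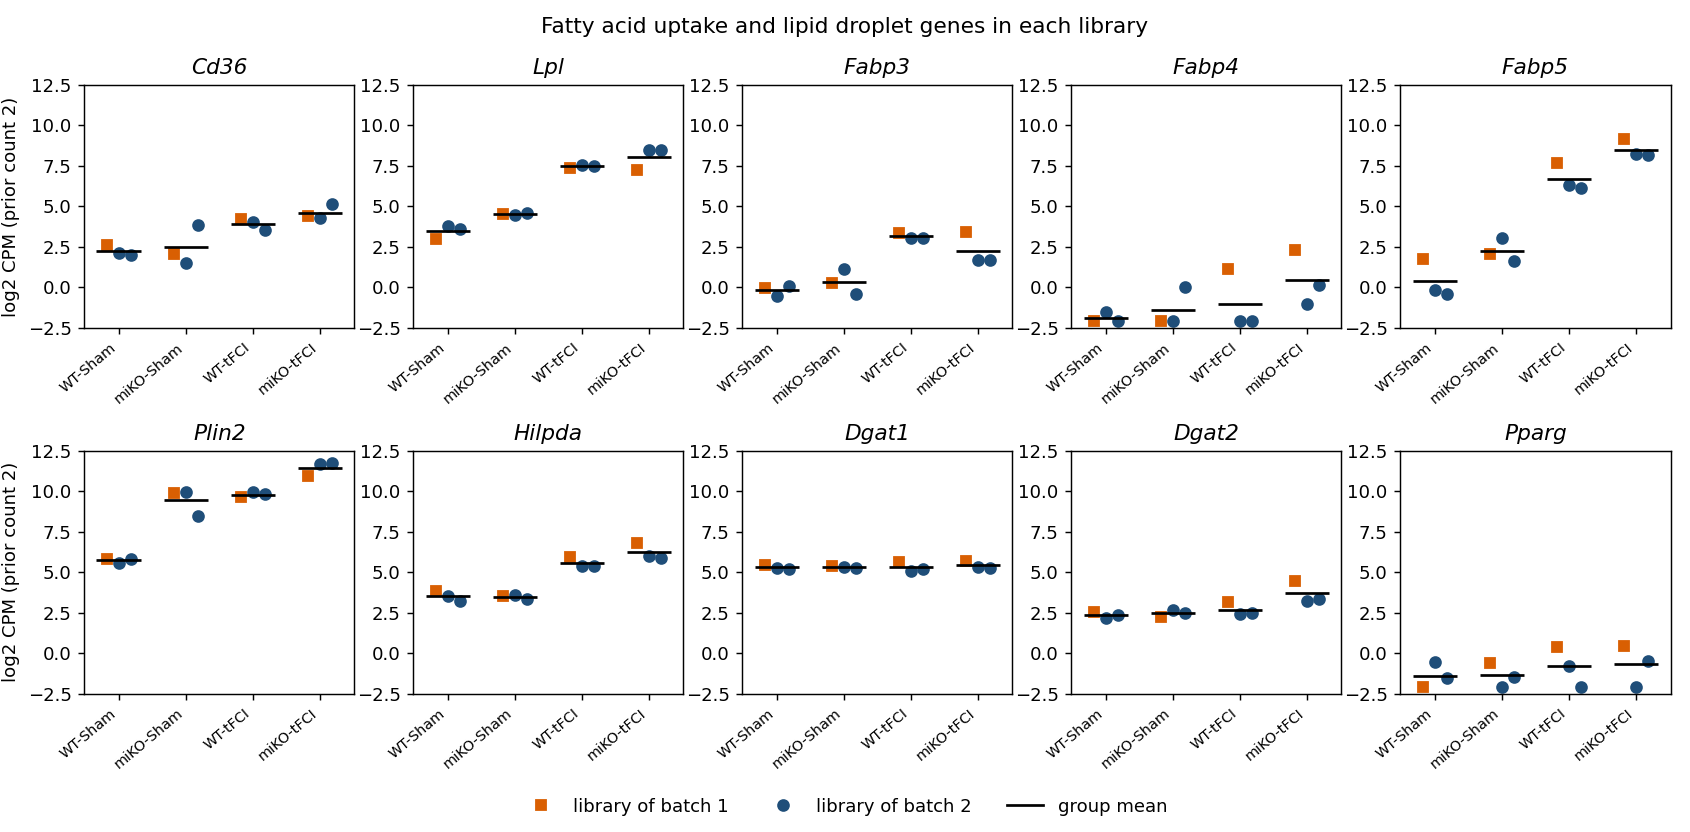
Level of each of the 10 genes in log2 CPM with a prior count of 2 (y axis, 1 scale for all panels) in each library of the 4 groups (x axis), with batch 1 as orange squares, batch 2 as blue circles and the group mean as a line. Plin2 is lowest in WT-Sham and highest in miKO-tFCI, Dgat1 lies at one height in all groups, and Fabp5 is higher in the batch 1 library of both tFCI groups.

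*Hilpda* (chr6:29272488-29275446, plus strand), the inhibitor of droplet lipolysis, was 14.2, 11.2 and 9.23 CPM in WT-Sham, 11.4, 12.1 and 9.99 CPM in miKO-Sham, 60.7, 41.2 and 41.8 CPM in WT-tFCI, while miKO-tFCI had 112, 64.3 and 57.7 CPM. All tFCI libraries lay above all sham libraries, and the tFCI groups overlapped, as WT-tFCI 1 was above miKO-tFCI 3. It was higher in tFCI by 2.05 ± 0.17 in WT (edgeR adjusted p = 5.49e-07) and 2.75 ± 0.18 in miKO (edgeR adjusted p = 6.35e-08). It differed between the tFCI groups by 0.68 ± 0.16 (edgeR adjusted p = 0.0154), with 0.88 in batch 1 and 0.55 in batch 2, and this call was lost in 6 of 21 alternatives. These were batch 2 alone (0.51, edgeR adjusted p = 0.0736), no batch term, and leaving out WT-tFCI replicate 1, 2 or 3 or miKO-tFCI replicate 1 (0.47 to 0.68). Between the sham groups the value was -0.03 ± 0.18 (edgeR adjusted p = 0.946), with a 95% interval of -0.42 to 0.37.

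*Dgat1* (chr15:76502015-76511953, minus strand) lay between 34.2 and 52.1 CPM in all 12 libraries, with all groups overlapping. Its log2 fold changes with tFCI were 0.0064 ± 0.13 in WT and 0.08 ± 0.13 in miKO, and those of miKO against WT were 0.04 ± 0.13 in sham and 0.12 ± 0.13 in tFCI libraries. Their 95% intervals lay between -0.27 and 0.39, inside the limit of 0.58. *Dgat2* (chr7:99153658-99182719, minus strand), a second enzyme for the same step, was 5.53, 4.37 and 4.92 CPM in WT-Sham, 4.58, 6.10 and 5.38 CPM in miKO-Sham, 8.62, 5.08 and 5.48 CPM in WT-tFCI, while miKO-tFCI had 21.7, 9.30 and 10.1 CPM. Only the miKO-tFCI libraries lay above all others, and the batch 1 library of that group was the highest. *Dgat2* was higher in miKO-tFCI than in WT-tFCI by 1.06 ± 0.29 (edgeR adjusted p = 0.0326) and than in miKO-Sham by 1.26 ± 0.30 (edgeR adjusted p = 0.00385). The first call was lost in 7 of 21 alternatives, among them leaving out any WT-tFCI replicate or miKO-tFCI replicate 1 or 3, with values of 0.68 (edgeR adjusted p = 0.214) without miKO-tFCI replicate 1 and 0.84 (edgeR adjusted p = 0.0982) in batch 2 alone, and the second in batch 2 alone (0.73, edgeR adjusted p = 0.0804).

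*Pparg* (chr6:115360951-115490399, plus strand) had 0, 4 and 1 counts in WT-Sham, 3, 0 and 1 in miKO-Sham, 9, 3 and 0 in WT-tFCI, and 11, 0 and 4 in miKO-tFCI. These groups overlapped, and no difference was detectable at this depth, where 3 counts correspond to 0.308 to 0.416 CPM. In CPM per kilobase of the principal transcript, the scale on which genes can be compared, *Plin2* was the highest of the 10 in every group, with means of 28.6 in WT-Sham, 409 in miKO-Sham, 476 in WT-tFCI and 1538 in miKO-tFCI. *Fabp5* was at rank 6 in WT-Sham (1.46) and at rank 2 in WT-tFCI (120) and miKO-tFCI (391). *Hilpda* was at rank 3 and *Lpl* at rank 4 in all groups, whereas *Dgat1* was at rank 2 in both sham groups (20.9 and 21.5) and at rank 5 in both tFCI groups (21.2 and 22.9).

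The wider lipid genes were described by 9 lists, which were chosen with earlier results known and are given by their counts alone. Over all genes tested, 20.9% were called higher and 11.7% lower in WT-tFCI vs. WT-Sham, and 8.58% and 6.8% in miKO-Sham vs. WT-Sham. In miKO-tFCI vs. WT-tFCI these shares were 4.08% and 4.71%. The medians over all genes were 0.02, 0.04 and 0.04 in this order. Several lists lay near these values, and no list was tested as a set. Of the lipid droplet coat and assembly genes, 3 of 11 tested were higher and 1 lower in WT-tFCI vs. WT-Sham (median 0.04 against 0.02 over all genes), and 2 and 0 in miKO-Sham vs. WT-Sham (median 0.14 against 0.04). *Plin3*, another droplet coat protein, was higher in both, by 1.57 ± 0.14 (edgeR adjusted p = 6.29e-07) and 1.52 ± 0.14 (edgeR adjusted p = 2.33e-06), in miKO-tFCI vs. WT-tFCI by 0.81 ± 0.13 (edgeR adjusted p = 0.00125), and had an interaction of -0.71 ± 0.19 (edgeR adjusted p = 0.0468). *Plin5*, also among the 3 higher with tFCI in WT, had at most 7 counts in any sham library. It had enough counts to be tested only through tFCI libraries, where it was higher. Among the partners of lipoprotein lipase, 3 of 9 were higher and 0 lower in WT-tFCI vs. WT-Sham and 2 and 1 in miKO-tFCI vs. WT-tFCI. *Angptl4*, which inhibits the lipase, was higher by 4.79 ± 0.37 (edgeR adjusted p = 2.45e-07) and by 1.27 ± 0.26 (edgeR adjusted p = 0.00709) in these. *Vldlr*, also among the 3 higher with tFCI in WT, had at most 9 counts in any sham library. Its place among those tested likewise depended on tFCI libraries. *Sort1*, a sorting receptor, was lower in miKO-Sham vs. WT-Sham, with a log2 fold change of -0.76 ± 0.16 (edgeR adjusted p = 0.00367).

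Of the 8 tested lipolysis genes, 1 was higher and 1 lower in both comparisons of miKO with WT. Over all genes, 8.58% were called higher and 6.8% lower in sham, and 4.08% and 4.71% in tFCI. *Lipa*, the acid lipase of lysosomes, was higher by 1.74 ± 0.18 in sham (edgeR adjusted p = 9.86e-06) and 0.99 ± 0.18 in tFCI (edgeR adjusted p = 0.00297), and *Mgll*, which splits monoacylglycerols, was lower by -2.06 ± 0.28 (edgeR adjusted p = 0.000117) and -1.47 ± 0.29 (edgeR adjusted p = 0.00517). Of 16 triglyceride and sterol ester synthesis genes, 7 were higher and 2 lower in WT-tFCI vs. WT-Sham (median 0.44), where 20.9% and 11.7% of all genes were. In miKO-Sham vs. WT-Sham, 4 were higher and 1 lower (median 0.27). Of the 7, *Gpat3* and *Lpin3* had at most 3 and 1 counts in any sham library. They had enough counts to be tested only through tFCI libraries, where they were higher. *Soat1*, which makes cholesteryl esters for storage, was higher in miKO-Sham by 1.34 ± 0.22 (edgeR adjusted p = 0.000572). Of 21 fatty acid oxidation genes, 8 were higher and 0 lower in WT-tFCI vs. WT-Sham (median 0.46) and 3 and 0 in miKO-Sham vs. WT-Sham (median 0.32). Over all genes, 20.9% and 11.7% were called higher and lower in the first, and 8.58% and 6.8% in the second. At an unadjusted edgeR p under 0.05, 11 were higher and 2 lower in the first of these, and 7 and 4 in the second. *Cpt1a*, which lets fatty acids into mitochondria, was higher in miKO-Sham by 1.05 ± 0.13 (edgeR adjusted p = 3.87e-05), and in miKO-tFCI vs. WT-tFCI edgeR called 0 of these 21 genes, with 5 higher and 1 lower at an unadjusted p under 0.05.

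Of 15 fatty acid synthesis genes, 3 were higher and 2 lower in WT-tFCI vs. WT-Sham (median 0.40), 1 and 1 in miKO-Sham vs. WT-Sham (median -0.12), and 2 and 2 in miKO-tFCI vs. WT-tFCI (median 0.28). *Thrsp*, a regulator of lipogenesis, was lower by -2.27 ± 0.25 (edgeR adjusted p = 1.5e-05) in miKO-Sham and -2.62 ± 0.27 (edgeR adjusted p = 3.84e-05) in miKO-tFCI vs. WT-tFCI. Of 14 fatty acid uptake and activation genes, 5 were higher and 1 lower in WT-tFCI vs. WT-Sham (median 0.58), and of 14 regulators around PPARs and RXRs 3 and 1 (median -0.04). Over all genes, 20.9% were called higher and 11.7% lower in that comparison (median 0.02), so the regulators lay near the share called higher. Of the 5 uptake and activation genes, *Acsl6* had at most 9 counts in any sham library and *Acsbg1* at most 1 in WT-Sham. Both had enough counts to be tested only through tFCI libraries, where they were higher. Of the regulators, 2 were higher and 0 lower in miKO-Sham vs. WT-Sham (median 0.02), with 8.58% and 6.8% of all genes. In miKO-tFCI vs. WT-tFCI, 1 was higher and 1 lower (median -0.15), with 4.08% and 4.71% of all genes. *Rxra*, a partner receptor of PPARs, was higher in miKO-Sham by 0.95 ± 0.18 (edgeR adjusted p = 0.0019). In miKO-tFCI vs. WT-tFCI it was higher by 0.79 ± 0.19 (edgeR adjusted p = 0.0151), with 0.22 in batch 1 and 1.04 in batch 2. The gene called lower there was *Rxrg*, another RXR. Of the other genes of the FABP family, 4 were tested and all 4 were higher in WT-tFCI vs. WT-Sham. *Crabp1* and *Crabp2* among these had at most 1 and 7 counts in any sham library. They had enough counts to be tested only through tFCI libraries, where they were higher.

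**Figure D4:**
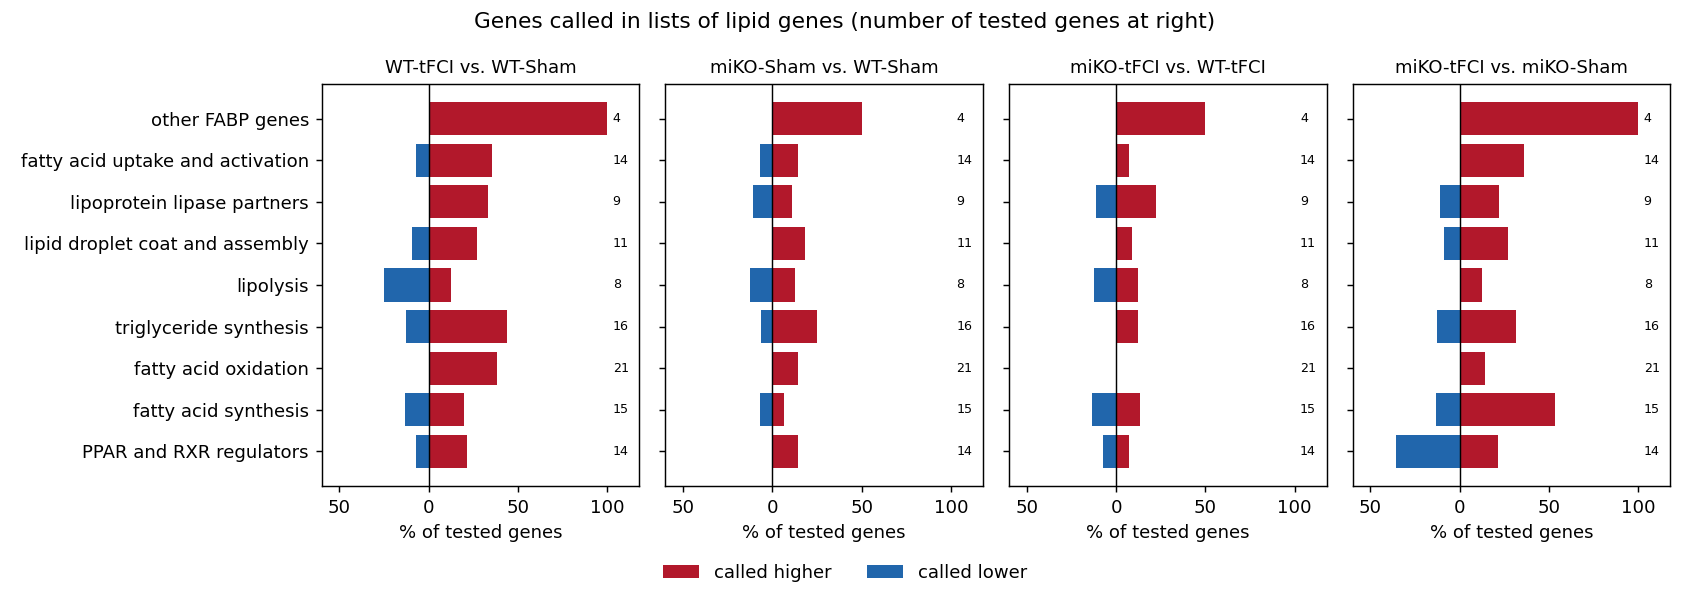
Share of tested genes called higher (red, to the right) and lower (blue, to the left) in % (x axis) for 9 lists of lipid genes (y axis) in the 4 comparisons, with the number of genes tested at the right of each bar. Fatty acid oxidation has no gene called lower in any of the 4 comparisons, and 8 of its 21 genes were called higher in WT-tFCI vs. WT-Sham. In each comparison some of its genes were lower at an unadjusted edgeR p under 0.05.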

How the data were processed

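Per the labels, RNA of sorted microglia was made into SMART-Seq v4 libraries and sequenced paired-end. The submitters' processing notes name FastQC 0.11.9, Trim Galore, HISAT2 2.2.1, SAMtools, HTSeq 1.99.2 and GRCm38.p6. The counts per gene were deposited by the authors without normalization, and the lines for reads on no gene (45.3% to 52.5% of reads on no feature) were left out. Batch 1 holds replicate 1 of each group. The labels name another cell sorter than the methods do. Symbols came from GENCODE M21, which matched 55141 of 55401 identifiers.

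With edgeR 4.0.16 (R 4.3.3), low genes were removed with filterByExpr, counts were scaled by TMM (0.864 to 1.11), and a quasi-likelihood fit took group plus batch over 12 libraries, with Benjamini-Hochberg adjustment over 16451 genes. CPM uses the TMM-scaled totals. The steps were tested on simulated data, and DESeq2 1.42.0 and other settings were alternatives. Named beside the 10 genes were *Hdac3*, up to 2 called genes per list, direction and comparison with at least 5 CPM, of which some are given, and the highest gene of a marker list. Some of these genes are not reported here. Members and lists were chosen with earlier results of these data known. P-values set group differences against the spread between these libraries. Each library is a pool of 3 to 4 hemispheres, so this is not the spread between single mice.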

Additional observations from a re-analysis of the deposited data

Results flagged for a closer look

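On the log2 scale, the genotype difference of *Plin2* depended on surgery, by a test of the difference itself. The interaction was -2.16 on the log2 scale (edgeR adjusted p = 0.0124), with a genotype difference of 3.85 in sham and 1.69 in tFCI libraries. It was negative in both batches. The WT and miKO means were 53.9 and 772 CPM in sham, and 898 and 2905 CPM in tFCI libraries. The genotype difference was thus smaller with tFCI as a ratio, but not in CPM.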

How the results depend on the processing

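All values are log2 fold changes or counts of the 10 genes called, of which the main fit tested 8. The genes tested differed between alternatives, with 9 tested without WT-tFCI replicate 2. *Fabp3* and *Fabp5* had libraries below 10 counts, so they were not tested where 10 counts were required in every library. The count of 8 below was reached with *Fabp4*, which was called without miKO-Sham replicate 3. The counts stayed within 1.5 times in every alternative for WT-tFCI vs. WT-Sham (4 to 6), miKO-Sham vs. WT-Sham (2 to 3), miKO-tFCI vs. miKO-Sham (5 to 8) and the interaction (1). In miKO-tFCI vs. WT-tFCI, with 4 calls, the count was 1 without the batch term, 6 with only the groups compared and 2 to 5 when 1 replicate was left out, with 2 without WT-tFCI replicate 2 and 2 without WT-tFCI replicate 3; the cause was not tested. With a replicate block in place of batch the 5 counts were 6, 3, 4, 7 and 1, the same as without it. Same-numbered libraries of different groups deviated together with correlations of -0.06 to 0.67 (median 0.13), over 0.1 in 11 of 18 pairs. Differently numbered libraries had correlations of -0.50 to 0.39 (median -0.07), over 0.1 in 5 of 36 pairs. The main fit took batch, which sets replicate 1 apart, and did not take the numbers as pairs.

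The alternatives chosen after seeing the data were batch 2 alone and leaving out miKO-Sham 3 together with WT-Sham 2. Signs turned only for values that were not called. Without the low-count filter, *Dgat1* in WT-tFCI vs. WT-Sham was -0.015. In batch 2 alone, *Dgat1* was -0.071 there and -0.056 in miKO-tFCI vs. miKO-Sham, *Hilpda* 0.10 in miKO-Sham vs. WT-Sham, and the interactions of *Cd36* and *Lpl* -0.12 and 0.13. Without both sham libraries, *Dgat1* in WT-tFCI vs. WT-Sham was -0.017, and in miKO-Sham vs. WT-Sham *Cd36* was -0.56 and *Hilpda* 0.026. With 1 replicate left out, the ranges were -0.067 to 0.0079 for *Dgat1* in WT-tFCI vs. WT-Sham, -0.016 to 0.14 in miKO-tFCI vs. miKO-Sham, -0.013 to 0.14 in miKO-Sham vs. WT-Sham and -0.020 to 0.13 in its interaction. In miKO-Sham vs. WT-Sham they were -0.51 to 1.00 for *Cd36*, -0.18 to 0.17 for *Hilpda*, -0.050 to 1.17 for *Fabp3* and -0.045 to 0.46 for *Dgat2*. For the interactions they were -0.28 to 1.27 for *Cd36* and -0.95 to 0.66 for *Fabp5*. Over all genes, the number called in miKO-tFCI vs. WT-tFCI was 1446 and ranged from 616 to 2535, that of the interaction was 629 and ranged from 281 to 1272, and that in miKO-tFCI vs. miKO-Sham was 5887 and fell to 3744 where 10 counts were required in every library. Few counts limit *Fabp3*, *Fabp4*, *Pparg* and the sham levels of *Fabp5*.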
